A study of Mus musculus with 64 samples.

Results

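Conditioned medium (CM) from tumour cells and prostaglandin E2 (PGE2) on its own were compared in cultured mouse natural killer (NK) cells, in 42 of the 64 libraries of the series: 22 with CM and 20 with PGE2. The members are all libraries labelled with either treatment, and the other 22 libraries, from untreated cells, served only as a level to read against. The medium came from control BRAFV600E tumour cells that make PGE2, so the comparison asks what such a medium does beyond PGE2. PGE2 was given at 100 ng/ml. How much of it the medium held is not given in the sources used here, so the doses cannot be matched.

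The NK cells came from spleen and were cultured for 5 days in a low dose of IL-2 plus complexes of IL-15 with its receptor alpha chain. Their donors were EP2/EP4KO mice (GzmbCre Ptger2-/-Ptger4fl/fl), which lack the PGE2 receptor EP2 and in which Cre expressed with granzyme B is to delete the receptor EP4, EP2KO mice (Ptger2-/-Ptger4fl/fl, no Cre) and wild-type (WT) C57BL/6J mice. Stimulated cells had CM or PGE2 for 1 h and then 4 h with an antibody to NK1.1, an activating receptor, and unstimulated cells had either treatment for 5 h. Each of the 6 combinations of genotype and state is one block of the comparison. CM and PGE2 have 3 libraries each in both EP2/EP4KO blocks and 4 each in the EP2KO blocks and the stimulated WT block, while the unstimulated WT block has 4 with CM and 2 with PGE2. No label says which libraries come from separate animals, so the p-values measure the spread between these libraries, which may be partly technical. Deletion by GzmbCre depends on Gzmb being expressed, and cells that escaped it would be counted in the EP2/EP4KO libraries.

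PGE2 signals in NK cells through EP2 and EP4, which raise cyclic AMP and drive CREB-dependent genes such as Crem. Transforming growth factor beta (TGF-beta) acts through receptor kinases that phosphorylate SMAD2 and SMAD3. The SMADs induce their own inhibitors, and in NK cells the pathway is known to lower cytotoxicity and to raise adhesion molecules of tissue residence such as CD49a. Metallothioneins are small zinc-binding proteins whose genes are switched on by the zinc-sensing factor MTF1, and NRF2 is the factor that induces glutathione, thioredoxin, haem and iron-storage genes under oxidative stress.

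The 42 libraries held 753973 to 1461464 counts, with a median of 1191420, so that 1 CPM (a count scaled to a library total of 1000000) is about 1 count. Without stimulation the CM libraries were the shallower in every genotype (means of 1185000, 1013000 and 933800 counts in EP2/EP4KO, EP2KO and WT, against 1388000, 1179000 and 1155000 with PGE2). What part this depth gap has in the results was not tested. Of NK cell markers, 12 of 12 passed the filter on low counts, and together they took 0.631% to 1.17% of the counts with CM, against 0.665% to 1.29% with PGE2. Markers of T cells took 0.0419% to 0.0704% against 0.0464% to 0.0746%, and those of B cells, macrophages and dendritic cells, neutrophils, and erythroid cells and platelets no more than 0.0894% in any CM or PGE2 library. Tumour cell markers took 0.000597% to 0.00261% with CM, against 0.000901% to 0.00296% with PGE2, with Dct at 0 in all 42 libraries. Ptger2 stood at a median of 5.84 CPM in EP2/EP4KO, 6.52 CPM in EP2KO and 6.88 CPM in WT libraries, and Ptger4 at 51.2, 23 and 22.4 CPM. Because the libraries read 3' ends and the sources used here do not say which exons were removed, these counts do not check the deletions. The EP2/EP4KO libraries had a median of 39.9 CPM of Xist and 85.2 CPM of Ddx3y, against 657 and 3.55 CPM in EP2KO and 707 and 2.64 CPM in WT, so genotype and sex cannot be told apart where EP2/EP4KO cells differ from the other genotypes.

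CM differed from PGE2 by small and repeated steps. By edgeR's quasi-likelihood test with 1 term per block, 107 genes were higher with CM (1.03% of the 10377 genes tested) and 66 were lower (0.636%) at an adjusted p under 0.05, and 1230 had an unadjusted p under 0.05. The median size of the called differences was 0.35 on the log2 scale, 38 of the 173 exceeded 0.5 and 2 exceeded 1. The median difference over all genes tested was -0.00286. The libraries of CM and PGE2 did not overlap in at least 3 of the 6 blocks for 44 genes that were higher with CM (0.424% of genes) and for 24 that were lower (0.231%). Among genes whose mean log2 CPM reached 4, Ldlrad4 had the largest rise with CM, and the rises included adhesion genes, inhibitors of TGF-beta signalling and Tgfb1 itself. Those that fell included the metallothioneins Mt1 and Mt2, antioxidant genes, granzyme B and perforin. In bulk libraries, fewer cells of a kind and less RNA per cell cannot be told apart.

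**Figure D1:**
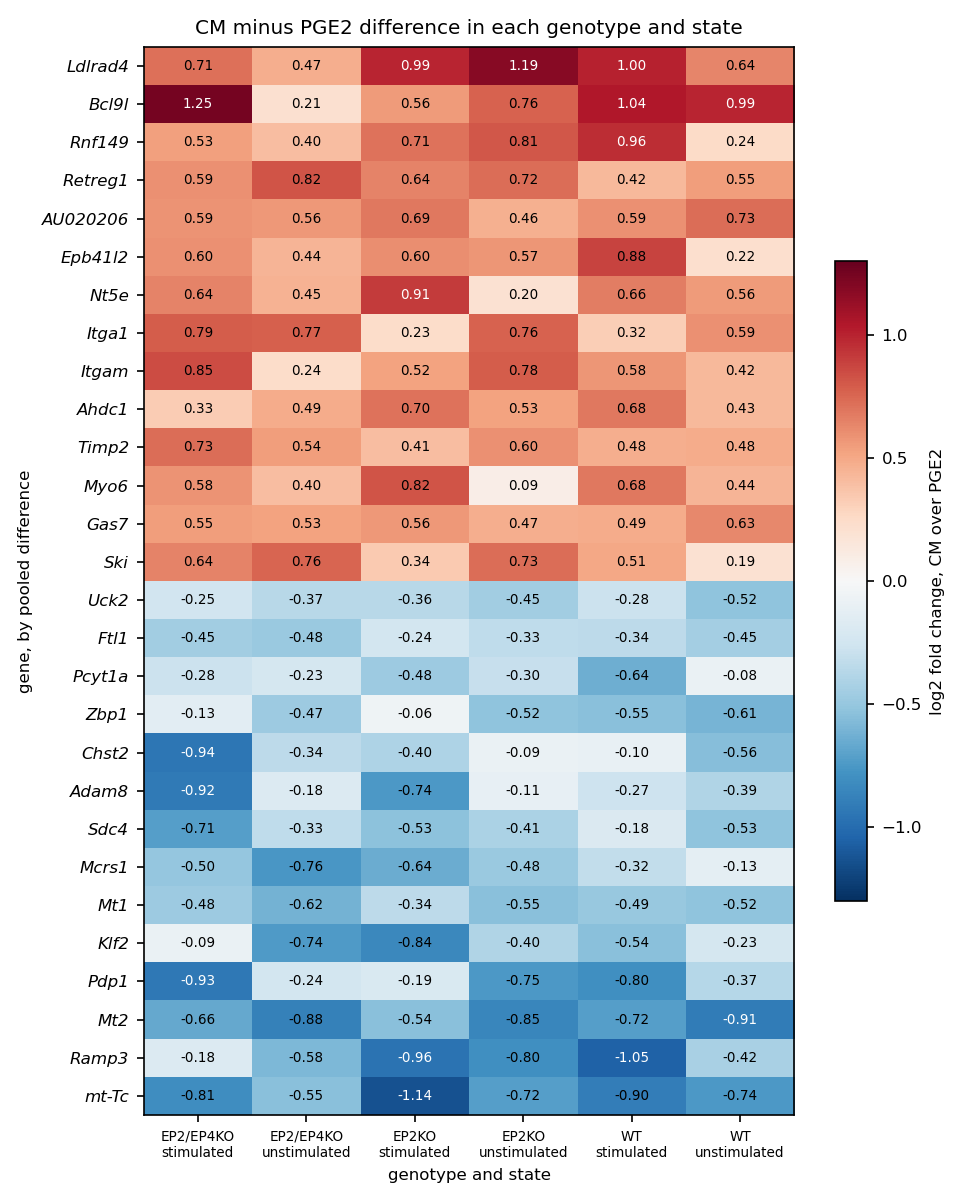
Log2 fold change of CM over PGE2 in each genotype and state (columns) for 14 called rises and 14 called falls (rows), among the largest of genes whose mean log2 CPM reached 4 and with the same sign in all 6 blocks. One colour along a row is thus part of the choice, while the sizes vary within a row: Bcl9l has 0.21 in unstimulated EP2/EP4KO cells and 0.99 in unstimulated WT cells.

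Ldlrad4, Pmepa1, Smad7, Ski and Skil, all inhibitors of TGF-beta signalling, were higher with CM. Tgif1, a SMAD co-repressor too, was not called (0.21 ± 0.07, adjusted p = 0.097), and Smad6 was not tested. Ldlrad4 and Pmepa1 encode related membrane proteins that bind SMAD2 and SMAD3 and keep them from the receptor, Smad7 is the inhibitory SMAD, and Ski and Skil are SMAD co-repressors. In EP2/EP4KO cells, Pmepa1 stood at 136, 140 and 199 CPM with CM, against 61.2, 66.9 and 87.6 CPM with PGE2, after stimulation, and at 85.9, 88.1 and 138 CPM with CM, against 46.6, 79.2 and 80.8 CPM with PGE2, without it. The EP2KO libraries held 194, 173, 160 and 194 CPM of Pmepa1 with CM, against 137, 127, 112 and 137 CPM with PGE2, when stimulated, and 208, 192, 197 and 210 CPM with CM, against 158, 155, 155 and 136 CPM with PGE2, when unstimulated. In WT cells, Pmepa1 stood at 126, 238, 163 and 189 CPM with CM, against 116, 166, 105 and 125 CPM with PGE2, after stimulation, and at 132, 201, 207 and 163 CPM with CM, against 162 and 168 CPM with PGE2, without it. Every CM library was above every PGE2 library of its block in both EP2KO and both EP2/EP4KO blocks, while the WT libraries overlapped. The pooled difference was 0.52 ± 0.08 (log2 ± SE, adjusted p = 8.22e-05 by edgeR), and it was 0.86 ± 0.15 in EP2/EP4KO, 0.46 ± 0.12 in EP2KO and 0.28 ± 0.14 in WT cells. The difference between EP2/EP4KO and WT was not called (adjusted p = 0.993).

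Ldlrad4 had 14.2 to 40.9 CPM (median 22.6) with CM, against 5.14 to 24.4 CPM (median 13.1) with PGE2. It differed by 0.86 ± 0.11 (adjusted p = 1.34e-06), without overlap in 4 of 6 blocks. PGE2 left it near the untreated level: its log2 difference from untreated cells, averaged over the blocks, was 0.83 with CM and -0.0027 with PGE2. Both values share the untreated libraries and are descriptions. Smad7 differed by 0.42 ± 0.08 (adjusted p = 0.000665). Its means were 63.7 ± 8.36 CPM with CM and 39.4 ± 1.31 CPM with PGE2 in unstimulated EP2/EP4KO cells (SD, n = 3 each), but 65.1 ± 6.33 and 66.7 ± 10.9 CPM in unstimulated EP2KO cells (n = 4 each), the one block in which CM was not the higher. Ski differed by 0.53 ± 0.10 (adjusted p = 0.000701) and Skil by 0.33 ± 0.07 (adjusted p = 0.00451). Skil averaged 145 ± 16.6 CPM with CM (n = 4) and 125 ± 3.89 CPM with PGE2 (n = 2) in unstimulated WT cells, where untreated cells had 75.7 CPM.

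The ligand gene Tgfb1 was also higher with CM. The EP2/EP4KO libraries held 775, 556 and 516 CPM of Tgfb1 with CM, against 475, 345 and 401 CPM with PGE2, when stimulated, and 290, 364 and 406 CPM with CM, against 209, 321 and 266 CPM with PGE2, when unstimulated. In EP2KO cells, Tgfb1 stood at 637, 703, 862 and 600 CPM with CM, against 503, 569, 559 and 355 CPM with PGE2, after stimulation, and at 614, 543, 584 and 592 CPM with CM, against 365, 456, 432 and 454 CPM with PGE2, without it. The WT libraries held 577, 631, 660 and 759 CPM of Tgfb1 with CM, against 418, 518, 553 and 549 CPM with PGE2, when stimulated, and 407, 519, 666 and 516 CPM with CM, against 365 and 455 CPM with PGE2, when unstimulated. The groups did not overlap in 4 blocks, which were both EP2KO blocks, stimulated EP2/EP4KO and stimulated WT. The pooled difference was 0.45 ± 0.07 (adjusted p = 1.13e-05), with 0.51 ± 0.13 in EP2/EP4KO, 0.48 ± 0.11 in EP2KO and 0.36 ± 0.13 in WT cells. In EP2/EP4KO cells the mean with PGE2 was 407 CPM with stimulation and 265 CPM without it, against 389 and 270 CPM in untreated cells. The receptor genes Tgfbr1 (0.09 ± 0.09, adjusted p = 0.764) and Tgfbr2 (0.20 ± 0.06, adjusted p = 0.0541) were not called. Tgfbr2 was called higher with the DESeq2 test, with all 64 libraries and with equal weight of blocks.

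**Figure D2:**
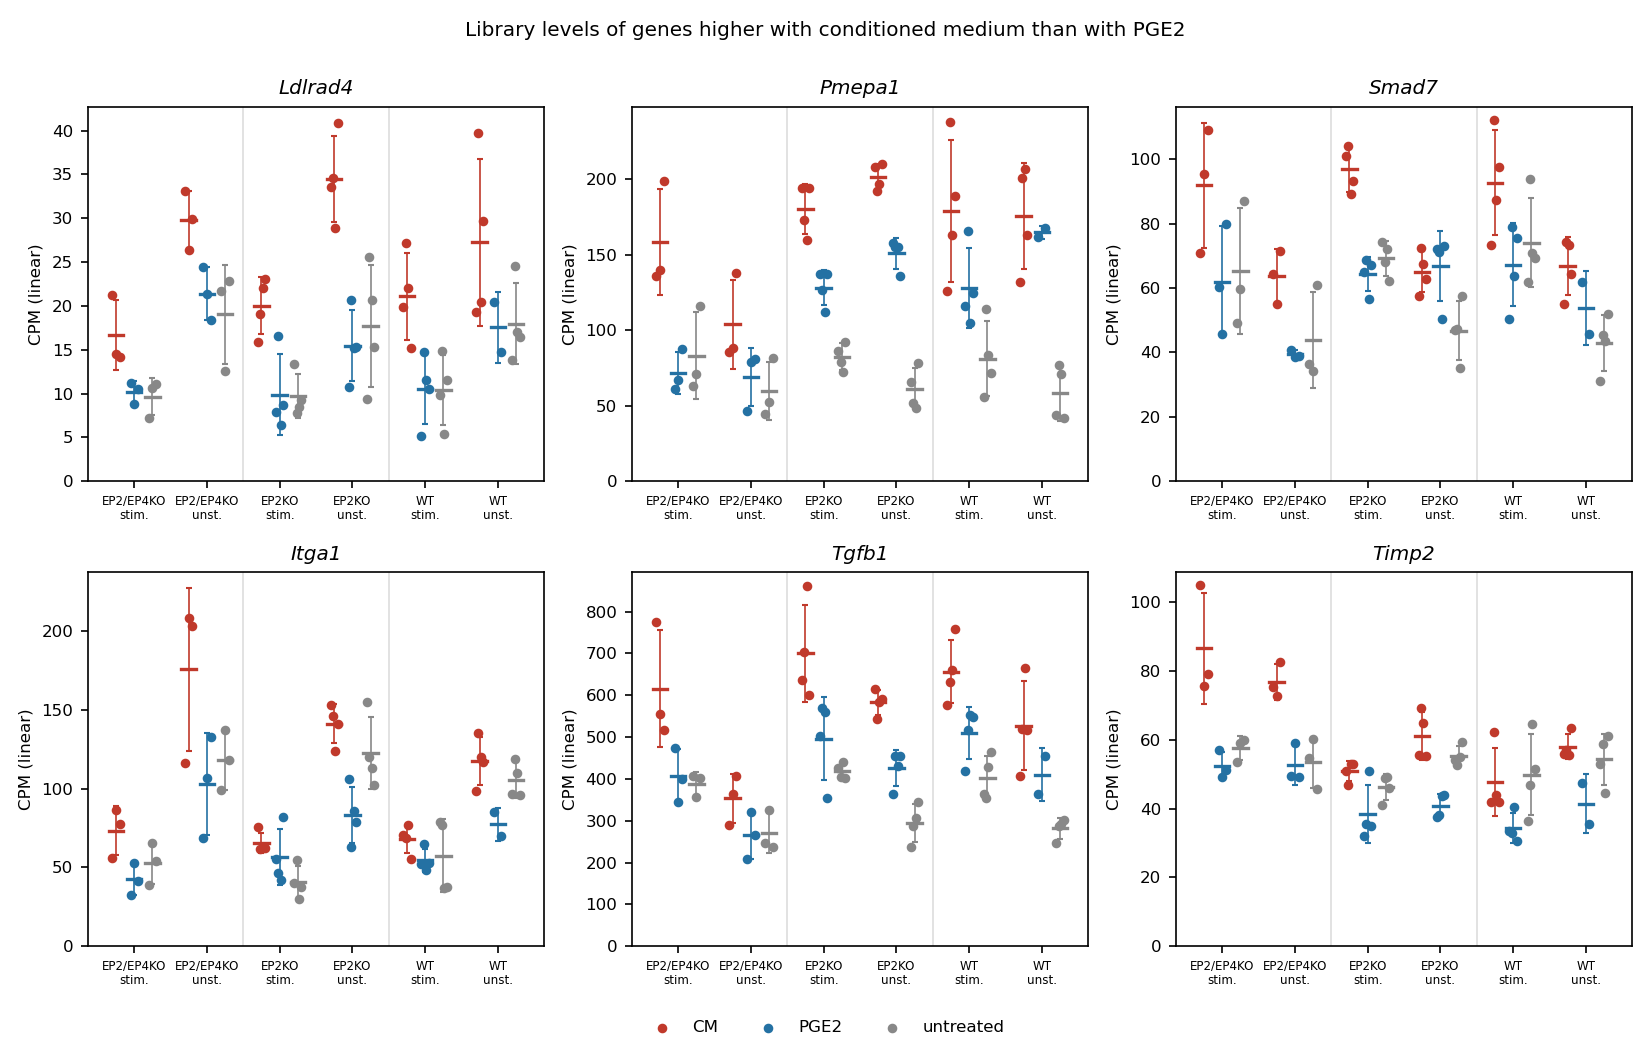
CPM on a linear axis in every library, by genotype and state, for 6 genes that were higher with CM; red points are CM, blue PGE2 and grey untreated libraries, with bars at the mean and whiskers of 1 SD (n = 2 to 4). The mean with CM lies above that with PGE2 in all blocks except for Smad7 in unstimulated EP2KO cells, and for Ldlrad4 the blue and grey points share one range.

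Of targets of the pathway, Itga1 and Nt5e were higher with CM. Itga1 encodes CD49a, a collagen-binding integrin subunit of tissue-resident NK cells, and had 55.5 to 208 CPM (median 92.3) with CM, against 32.8 to 133 CPM (median 64) with PGE2. It averaged 176 ± 51.6 CPM with CM and 103 ± 32.1 CPM with PGE2 in unstimulated EP2/EP4KO cells, and 141 ± 12.2 and 83.2 ± 17.7 CPM in unstimulated EP2KO cells. The pooled difference was 0.57 ± 0.09 (adjusted p = 2.93e-05). Nt5e encodes CD73, the surface enzyme that turns AMP into adenosine. It differed by 0.58 ± 0.13 (adjusted p = 0.00898) at low levels, with 27.3 ± 3.39 CPM with CM, against 17.2 ± 4.67 CPM with PGE2, in stimulated WT cells (n = 4 each). Of the whole list of 26 TGF-beta/SMAD response genes, 19 were tested, 7 were higher (Ldlrad4, Itga1, Pmepa1, Smad7, Ski, Skil and Nt5e), none was lower, and 12 were not called. Of all 10377 genes tested, 1.03% were called higher and 0.636% lower. The list's count of 7 was 3 without the EP2KO libraries (Ldlrad4, Itga1 and Smad7) and 5 without those of WT. The median over the 19 was 0.20, against -0.00286 over all genes tested, and was 0.37 in EP2/EP4KO, 0.19 in EP2KO and 0.18 in WT cells. The 12 include Smad3 at -0.13 ± 0.10 and Cdkn1a at 0.02 ± 0.08. The 7 untested members, among them Itgae and Xcr1, averaged at most 1.42 CPM.

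Other adhesion and trafficking genes moved both ways. Of 25 tested, 4 were higher and 2 lower with CM, against 1.03% and 0.636% of all genes tested. The list's median was 0.07. Beside Itga1, the higher ones were Itgam (CD11b, 0.57 ± 0.12, adjusted p = 0.00634), the shared beta-1 chain Itgb1 (0.22 ± 0.05, adjusted p = 0.00995) and the hyaluronan receptor Cd44 (0.24 ± 0.06, adjusted p = 0.032). Itgb1 averaged 1010 ± 144 CPM with CM, against 776 ± 36 CPM with PGE2, in unstimulated EP2/EP4KO cells, but its call was lost without the unstimulated WT block and without the libraries of any one genotype. The Cd44 call was lost with all 64 libraries, with equal weight of blocks and without the libraries of any one genotype. Itgam was not called without the EP2KO libraries. Of the lower ones, Klf2, a factor that drives S1pr1 and other genes of lymphocyte recirculation, differed by -0.50 ± 0.13 (adjusted p = 0.0309). S1pr1 itself was at 0.37 ± 0.15 and not called (adjusted p = 0.242). Klf2 was not called in 10 of the 42 fits that each left out 1 library. Its call was also lost with all 64 libraries, with equal weight of blocks and without the libraries of any one genotype.

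Timp2, an inhibitor of matrix metalloproteinases, rose with CM. In EP2/EP4KO cells, Timp2 stood at 105, 75.6 and 79.1 CPM with CM, against 56.9, 49.3 and 51.2 CPM with PGE2, after stimulation, and at 75.2, 72.6 and 82.5 CPM with CM, against 49.5, 59.2 and 49.3 CPM with PGE2, without it. The EP2KO libraries held 50.9, 47, 52.9 and 52.9 CPM of Timp2 with CM, against 32.1, 35.6, 51 and 35 CPM with PGE2, when stimulated, and 55.6, 69.3, 64.8 and 55.2 CPM with CM, against 37.5, 38.1, 43.7 and 44.1 CPM with PGE2, when unstimulated. In WT cells, Timp2 stood at 42, 62.4, 44.1 and 42 CPM with CM, against 33.4, 32.9, 40.5 and 30.7 CPM with PGE2, after stimulation, and at 55.9, 57, 55.7 and 63.4 CPM with CM, against 47.5 and 35.4 CPM with PGE2, without it. CM and PGE2 libraries of Timp2 did not overlap in 5 of the 6 blocks, the exception being stimulated EP2KO cells, where 1 PGE2 library reached 51 CPM. The pooled difference was 0.54 ± 0.07 (adjusted p = 1.8e-07), with 0.63 ± 0.12, 0.50 ± 0.11 and 0.48 ± 0.13 in EP2/EP4KO, EP2KO and WT. Retreg1 (FAM134B), a receptor for autophagy of the endoplasmic reticulum, differed by 0.62 ± 0.07 (adjusted p = 1.19e-07). It averaged 57.5 ± 10.8 CPM with CM and 32.5 ± 4.75 CPM with PGE2 in unstimulated EP2/EP4KO cells, and 65.6 ± 6.32 and 40.2 ± 4.51 CPM in unstimulated EP2KO cells. In stimulated WT cells Retreg1 averaged 51.6 CPM with CM, 38.5 CPM with PGE2 and 26.5 CPM untreated. Over the 6 blocks its log2 difference from untreated cells was 0.85 with CM and 0.23 with PGE2.

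Bcl9l, a co-activator of beta-catenin, differed by 0.76 ± 0.11 (adjusted p = 1.3e-05), the cytoskeletal linker Epb41l2 by 0.58 ± 0.07 (adjusted p = 6.76e-07) and the ubiquitin ligase Rnf149 by 0.65 ± 0.14 (adjusted p = 0.00634). Gas7, an actin-binding protein, and Myo6, a myosin of endocytic traffic, differed by 0.53 ± 0.08 and 0.53 ± 0.07 (adjusted p = 6.7e-06 and adjusted p = 5.11e-06). Over the blocks, Myo6 stood at a log2 difference from untreated cells of -0.22 ± 0.06 with CM and -0.72 with PGE2, Gas7 at -0.08 ± 0.08 and -0.62, and Ahdc1 at -0.03 ± 0.10 and -0.56. For Ldlrad4 the log2 differences from untreated cells were 0.83 with CM and -0.0027 with PGE2, for Ski 0.55 and 0.02, and for Smad7 0.49 and 0.06. Averaged over the blocks of all genotypes, other genes of that pathway were also higher with PGE2 than in untreated cells. Pmepa1 stood at 1.22 with CM and 0.69 with PGE2, Nt5e at 1.48 and 0.91, and Tgfb1 at 0.73 and 0.28. Itga1 stood at 0.39 with CM and -0.19 with PGE2. These averages did not hold in every block. In stimulated EP2/EP4KO cells, raw counts of Pmepa1 were 71, 91 and 125 with PGE2, against 87, 114 and 166 untreated. Those of Nt5e were 5, 13 and 15 with PGE2, against 5, 13 and 12 untreated. The means of Myo6 in stimulated cells were 219 CPM with CM, 147 CPM with PGE2 and 166 CPM untreated in EP2/EP4KO, and 96, 59.9 and 155 CPM in WT cells. Ahdc1 differed by 0.54 ± 0.10 and the long non-coding RNA AU020206 by 0.59 ± 0.08. The mitogen-activated kinase phosphatase Dusp2 (0.27 ± 0.05, adjusted p = 0.00246) and the lymphoid factor Ikzf3 (0.31 ± 0.08, adjusted p = 0.0302) were also higher, and Ikzf3 was not called in 4 of the 42 fits without 1 library. The Ikzf3 call was also lost with all 64 libraries, with equal weight of blocks, without the unstimulated WT block and without the libraries of any one genotype. Dusp2 was not called without the WT or without the EP2KO libraries.

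The metallothionein genes Mt1 and Mt2 fell with CM. The EP2/EP4KO libraries held 139, 124 and 85.4 CPM of Mt2 with CM, against 262, 172 and 120 CPM with PGE2, when stimulated, and 185, 153 and 103 CPM with CM, against 339, 279 and 196 CPM with PGE2, when unstimulated. In EP2KO cells, Mt2 stood at 92.6, 108, 152 and 194 CPM with CM, against 119, 176, 257 and 248 CPM with PGE2, after stimulation, and at 106, 129, 147 and 212 CPM with CM, against 132, 238, 324 and 390 CPM with PGE2, without it. The WT libraries held 94.8, 89.7, 123 and 123 CPM of Mt2 with CM, against 148, 147, 234 and 180 CPM with PGE2, when stimulated, and 135, 124, 149 and 127 CPM with CM, against 222 and 281 CPM with PGE2, when unstimulated. The groups were apart in stimulated and unstimulated WT cells and in unstimulated EP2/EP4KO cells, and they overlapped in the other 3 blocks, where the levels spread widely within a treatment. Mt2 differed by -0.75 ± 0.12 (adjusted p = 0.000231), with -0.77 ± 0.24 in EP2/EP4KO, -0.70 ± 0.20 in EP2KO and -0.82 ± 0.23 in WT cells. Mt1 had 312 to 1110 CPM (median 676) with CM, against 446 to 1670 CPM (median 864) with PGE2 and differed by -0.49 ± 0.10 (adjusted p = 0.00477). Against untreated cells, Mt2 stood at -0.51 with CM and 0.25 with PGE2, and Mt1 at -0.30 and 0.20. Of the 8 metallothionein and zinc genes tested these 2 were called, and the median was -0.11. Of all genes tested, 0.636% were called lower. The zinc exporter Slc30a1, which MTF1 also drives, was at -0.15 ± 0.10 (adjusted p = 0.576) and Mtf1 at -0.14 ± 0.08.

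Mt1 and Mt2 are neighbours on mouse chromosome 8, and their promoters are shown because the genes fell together. The sequences are RefSeq promoters for GRCm38.p6, from 250 bases before to 50 bases after each start, at chr8:94178839-94179138 and chr8:94172368-94172667, plus strand. Capitals mark matches, on either strand, to TGCNCNC. This pattern is looser than the core of the metal response element, TGCRCNC, where R is A or G.
Mt1: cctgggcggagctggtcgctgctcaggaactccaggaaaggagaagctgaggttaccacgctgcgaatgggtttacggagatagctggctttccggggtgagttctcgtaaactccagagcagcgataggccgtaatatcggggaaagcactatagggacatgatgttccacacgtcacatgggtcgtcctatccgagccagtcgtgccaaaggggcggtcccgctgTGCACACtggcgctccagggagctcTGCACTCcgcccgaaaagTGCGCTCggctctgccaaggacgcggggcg
Mt2: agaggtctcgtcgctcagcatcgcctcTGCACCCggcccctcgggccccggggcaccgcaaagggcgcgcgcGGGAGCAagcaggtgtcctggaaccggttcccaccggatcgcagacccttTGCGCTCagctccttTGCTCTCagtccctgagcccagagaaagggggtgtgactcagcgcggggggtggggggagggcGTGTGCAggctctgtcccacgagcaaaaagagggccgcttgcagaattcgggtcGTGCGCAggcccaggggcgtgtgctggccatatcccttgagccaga
Mt1 held 3 matches and Mt2 held 6, none overlapping another. In Mt2, GGGAGCA and TGCTCTC match the looser pattern only, so the count of 6 is not one of cores. The looser pattern is short: 51% of the 32851 promoters of this length held at least 1 match and 7.1% held 3 or more. A match describes the letters and not a bound site.

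Of 25 NRF2 targets tested, 4 were lower and none higher with CM, against 0.636% and 1.03% of all genes tested. A negative difference was found for 23 of the 25 targets, and for 5285 of all 10377 genes tested. The median was -0.15, against -0.00286 over all genes tested. It was -0.22 in EP2/EP4KO, -0.12 in EP2KO and -0.19 in WT cells. The called ones were Ftl1, the ferritin light chain, with 261 to 621 CPM (median 455) with CM, against 401 to 754 CPM (median 574) with PGE2 and a difference of -0.37 ± 0.07 (adjusted p = 0.00148), Txnrd1, a thioredoxin reductase (-0.32 ± 0.06, adjusted p = 0.00243), Gclc, the catalytic subunit of the first enzyme of glutathione synthesis (-0.35 ± 0.08, adjusted p = 0.00819), and Hmox1, haem oxygenase 1 (-0.87 ± 0.21, adjusted p = 0.0128). Hmox1 rested on few counts, 5.99 ± 2.65 CPM with CM against 11.7 ± 1.38 CPM with PGE2 in stimulated EP2KO cells, and DESeq2 gave it no adjusted p. The count of 4 was 2 without the EP2/EP4KO libraries (Ftl1 and Txnrd1), 0 without those of EP2KO and 1 without those of WT (Hmox1). Txnrd1 averaged 254 ± 55.3 CPM with CM and 345 ± 78 CPM with PGE2 in stimulated EP2/EP4KO cells, where untreated cells had 367 CPM. Nqo1 (-0.54 ± 0.23, adjusted p = 0.311), Gclm (-0.34 ± 0.19, adjusted p = 0.497) and Srxn1 (-0.24 ± 0.08, adjusted p = 0.122) were negative and not called, and Nfe2l2, which encodes NRF2, was at -0.02 ± 0.06. The antioxidant response element core TGACNNNGC, searched on both strands, was found once in 1 of the 3 RefSeq promoters of Txnrd1 and not in the one of Ftl1, and in 12.4% of all promoters. The promoter set used held no entry for Gclc or Hmox1, so theirs were not searched.

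**Figure D3:**
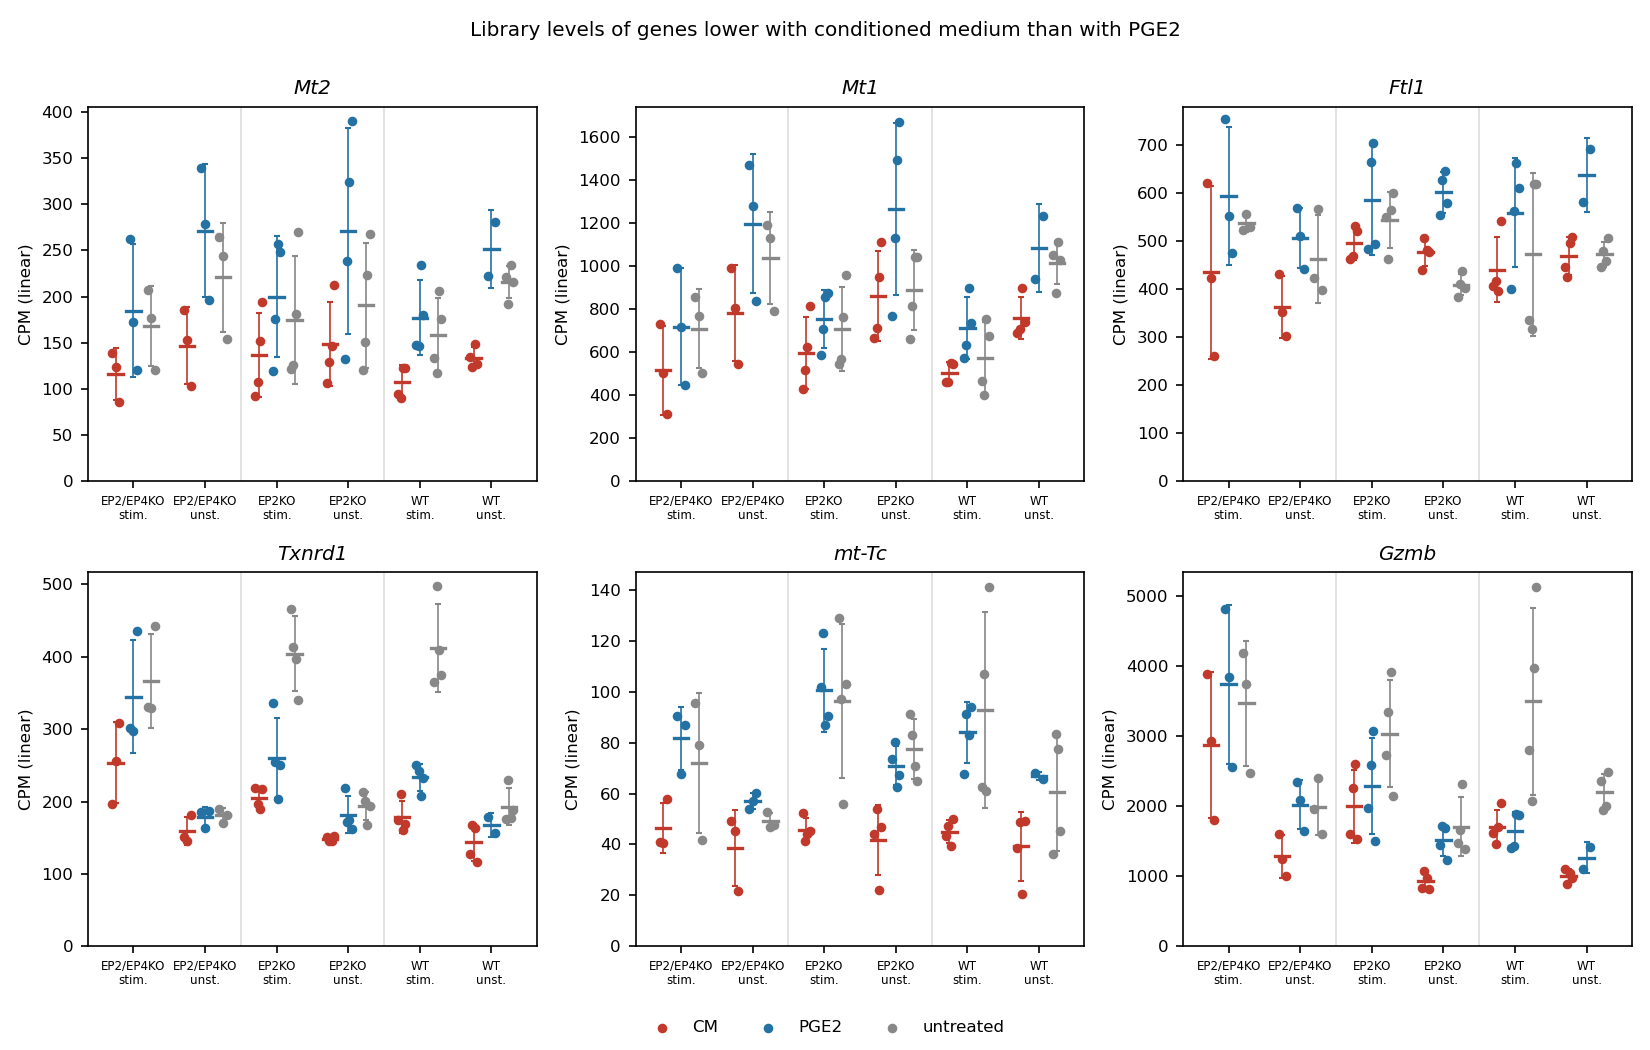
CPM on a linear axis in every library, by genotype and state, for 6 genes that were lower with CM; red points are CM, blue PGE2 and grey untreated libraries, with bars at the mean and whiskers of 1 SD (n = 2 to 4). For mt-Tc every red point lies under every blue point of its block, while for Gzmb the points mix in the stimulated blocks.

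The smallest p of the comparison belonged to mt-Tc, the mitochondrial transfer RNA for cysteine (adjusted p = 1.86e-09). In EP2/EP4KO cells, mt-Tc stood at 41, 40.4 and 57.7 CPM with CM, against 90.6, 67.7 and 86.9 CPM with PGE2, after stimulation, and at 49.2, 45.4 and 21.7 CPM with CM, against 53.8, 57.1 and 60.4 CPM with PGE2, without it. The EP2KO libraries held 52.2, 41.2, 44.1 and 45.4 CPM of mt-Tc with CM, against 102, 123, 86.9 and 90.5 CPM with PGE2, when stimulated, and 44.1, 53.9, 22 and 46.7 CPM with CM, against 73.6, 80.3, 62.7 and 67.1 CPM with PGE2, when unstimulated. In WT cells, mt-Tc stood at 43.5, 47.2, 39.4 and 50.1 CPM with CM, against 67.7, 91.4, 83 and 93.9 CPM with PGE2, after stimulation, and at 38.6, 48.8, 20.4 and 49.1 CPM with CM, against 67.9 and 65.7 CPM with PGE2, without it. All CM libraries were below all PGE2 libraries in each of the 6 blocks, and among unstimulated cells with CM the libraries numbered 3 were the lowest of their genotype each time. The difference was -0.83 ± 0.09, with -0.68 ± 0.16 in EP2/EP4KO, -0.93 ± 0.14 in EP2KO and -0.82 ± 0.16 in WT cells, and it lay between -0.87 and -0.81 in the 42 fits that each left out 1 library. Averaged over the 6 blocks, PGE2 left it near untreated cells (log2 differences from untreated of -0.76 with CM and 0.05 with PGE2). The blocks were not alike: in unstimulated EP2/EP4KO cells its raw counts were 75, 63 and 65 untreated and 55, 67 and 24 with CM. Untreated libraries also spread widely, with raw counts of 83, 151, 68 and 183 in stimulated WT cells. A list of mitochondrially encoded genes that does not hold mt-Tc did not follow: none of its 10 tested members was called and their median was -0.02. Mitochondrial genes outside that list are not described here. mt-Tc lies on the minus strand at chrM:5192-5257. The sources used here do not say whether counting used strand, so its reads and those of transcripts across it cannot be told apart.

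Of the genes of killing, Gzmb and Prf1 were lower with CM. Granzyme B and perforin are the protease and the pore-forming protein of the cytotoxic granule. The EP2/EP4KO libraries held 3890, 2930 and 1800 CPM of Gzmb with CM, against 4820, 3850 and 2560 CPM with PGE2, when stimulated, and 1600, 1250 and 1000 CPM with CM, against 2340, 2090 and 1640 CPM with PGE2, when unstimulated. In EP2KO cells, Gzmb stood at 1600, 2260, 2610 and 1530 CPM with CM, against 1980, 2590, 3080 and 1510 CPM with PGE2, after stimulation, and at 837, 1080, 971 and 820 CPM with CM, against 1440, 1720, 1690 and 1230 CPM with PGE2, without it. The WT libraries held 1620, 1460, 1700 and 2040 CPM of Gzmb with CM, against 1410, 1430, 1890 and 1870 CPM with PGE2, when stimulated, and 1110, 885, 1050 and 975 CPM with CM, against 1110 and 1420 CPM with PGE2, when unstimulated. The groups were apart in the 3 unstimulated blocks, in WT cells by less than the rounding at 1110 CPM, and overlapped in the 3 stimulated ones. The pooled difference of Gzmb was -0.36 ± 0.09 (adjusted p = 0.0355), with -0.52 ± 0.17 in EP2/EP4KO, -0.45 ± 0.15 in EP2KO and -0.14 ± 0.16 in WT cells, and it was not called in 16 of the 42 fits that each left out 1 library. Prf1 differed by -0.32 ± 0.07 (adjusted p = 0.00839) and averaged 862 ± 138 CPM with CM, against 1180 ± 303 CPM with PGE2, in stimulated EP2/EP4KO cells. Neither Gzmb nor Prf1 was called without the libraries of any one genotype. The remaining 22 of 24 cytotoxicity genes tested were not called, among them Gzma (-0.07 ± 0.09) and Fasl (-0.12 ± 0.08), and the list's median was -0.07. Of all genes tested, 0.636% were called lower.

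Among receptors of the NK cell, the activating receptor Slamf7 (-0.26 ± 0.07, adjusted p = 0.0314) and the IL-12 receptor chain Il12rb2 (-0.30 ± 0.07, adjusted p = 0.0119) were lower, and Slamf7 was not called in 5 of the 42 fits without 1 library. Its call was also lost with all 64 libraries, with equal weight of blocks and without the libraries of any one genotype. The Il12rb2 call was lost without the unstimulated WT block, without the WT libraries and without those of EP2KO. Ncr1, the receptor NKp46, was at -0.23 ± 0.07 and missed the threshold (adjusted p = 0.066). Il12rb2 differed by -0.02 ± 0.13 in EP2/EP4KO, -0.28 ± 0.11 in EP2KO and -0.54 ± 0.12 in WT cells, and the EP2/EP4KO minus WT difference was not called (adjusted p = 0.993). The effector cytokine Ifng (0.07 ± 0.07, adjusted p = 0.772) and the chemokines Xcl1 (0.07 ± 0.07, adjusted p = 0.768) and Ccl5 (-0.04 ± 0.08, adjusted p = 0.907) were not called. Of 24 NK cytokines and chemokines, Tgfb1 alone was.

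Of 27 cyclic AMP targets tested, 1 was higher and 1 lower with CM, against 1.03% and 0.636% of all genes tested. The list's median was 0.08. Averaged over the blocks of all genotypes, Crem stood 1.33 above untreated cells with CM and 1.42 above them with PGE2 (log2). The genotypes were not alike. Without stimulation, its raw counts in WT cells were 142, 96, 92 and 101 untreated, against 400 and 552 with PGE2. In unstimulated EP2/EP4KO cells they were 112, 136 and 104 untreated, against 138, 184 and 156 with PGE2. There, PGE2 was thus nearer to the untreated level, a gap between genotypes that was not tested. CM minus PGE2 for Crem was -0.10 ± 0.08 (adjusted p = 0.696). It was 0.06 ± 0.16 in EP2/EP4KO, -0.03 ± 0.13 in EP2KO and -0.28 ± 0.14 in WT cells. Vegfa was at 0.25 ± 0.09 (adjusted p = 0.166), Nr4a1 at 0.24 ± 0.09 (adjusted p = 0.163), Pde4b at 0.06 ± 0.07 and Rgs2 at 0.09 ± 0.06. The called ones were Rgs1, a brake on G protein signalling (0.21 ± 0.06, adjusted p = 0.0367, not called in 15 of the 42 fits without 1 library), and Ramp3, which shapes receptors of the calcitonin family (-0.78 ± 0.16, adjusted p = 0.00294). Ramp3 averaged 22.9 ± 10.2 CPM with CM and 47.8 ± 9.01 CPM with PGE2 in stimulated WT cells, where untreated cells had 3.23 CPM, and 4.7 ± 2.12 and 5.41 ± 1.32 CPM in stimulated EP2/EP4KO cells. The receptors Ptger2 (0.08 ± 0.16) and Ptger4 (-0.15 ± 0.09) were not called, nor was any of the 9 prostanoid pathway genes tested.

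Ribosome biogenesis and sterol synthesis genes had mostly negative differences. Of all 10377 genes tested, 5285 had a negative difference and 0.636% were called lower. All 28 ribosome biogenesis genes tested had a negative difference, with a median of -0.16, and 3 were called: Dkc1 (-0.24 ± 0.05, adjusted p = 0.00703), Noc2l (-0.21 ± 0.06, adjusted p = 0.0302) and Pes1 (-0.21 ± 0.06, adjusted p = 0.0367), of which Noc2l and Pes1 were not called in 2 and 13 of the 42 fits without 1 library. The median was -0.24 in EP2/EP4KO, -0.14 in EP2KO and -0.09 in WT cells. No member of this list was called without the EP2/EP4KO or without the EP2KO libraries, and Dkc1 alone was called without those of WT. Of 22 sterol synthesis genes tested, 19 were negative, with a median of -0.14, and Hmgcs1, an early enzyme of the pathway, was called (-0.32 ± 0.07, adjusted p = 0.00967). Hmgcs1 differed by -0.07 ± 0.14 in EP2/EP4KO, -0.48 ± 0.12 in EP2KO and -0.38 ± 0.13 in WT cells. Its call was lost without the EP2KO libraries and without those of WT. The desaturase Scd2 (0.41 ± 0.12, adjusted p = 0.0489) and the ubiquitin ligase Mylip (0.31 ± 0.09, adjusted p = 0.0458) were higher, and neither call held in most of the 42 fits without 1 library (not called in 32 and 28).

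Named falls outside these groups were Pdp1, the phosphatase that activates pyruvate dehydrogenase (-0.56 ± 0.12), Mcrs1 (-0.49 ± 0.10), the heparan sulfate carrier Sdc4 (-0.46 ± 0.12), the surface metalloproteinase Adam8 (-0.44 ± 0.08), the sulfotransferase Chst2 (-0.42 ± 0.11), the nucleic acid sensor Zbp1 (-0.40 ± 0.11), Pcyt1a of phosphatidylcholine synthesis (-0.38 ± 0.09) and the uridine kinase Uck2 (-0.36 ± 0.08). Adam8 averaged 36.9 ± 3.22 CPM with CM and 70 ± 16.7 CPM with PGE2 in stimulated EP2/EP4KO cells. Without the libraries of any one genotype, Pdp1, Uck2, Pcyt1a, Sdc4, Chst2 and Zbp1 were not called. Mcrs1 was not called without the EP2/EP4KO or without the EP2KO libraries, and Adam8 not without those of EP2KO. With all 64 libraries, and with equal weight of blocks, Pcyt1a, Sdc4, Chst2 and Zbp1 were not called. Calls of Sdc4, Chst2 and Zbp1 were lost in 10, 8 and 20 of the 42 fits without 1 library. Single members of other lists were also lower: Serpina3g (-0.29 ± 0.08) of the interferon-gamma list, Hif1a (-0.24 ± 0.07) of the STAT3 list and the tRNA synthetase Dars (-0.23 ± 0.06), not called in 10, 30 and 23 of those fits. Stat3 was at -0.03 ± 0.06. Of markers of other cells, 2 were called: Ighm of B cells was higher (0.33 ± 0.08, adjusted p = 0.0128) and Epcam of epithelial tumour cells was lower (-0.84 ± 0.20, adjusted p = 0.0108), at a mean of 5.03 CPM. The Epcam call was lost without the EP2/EP4KO and without the EP2KO libraries, DESeq2 gave it no adjusted p, and the Ighm call was lost without the EP2KO libraries, without those of WT and without the unstimulated WT block.

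**Figure D4:**
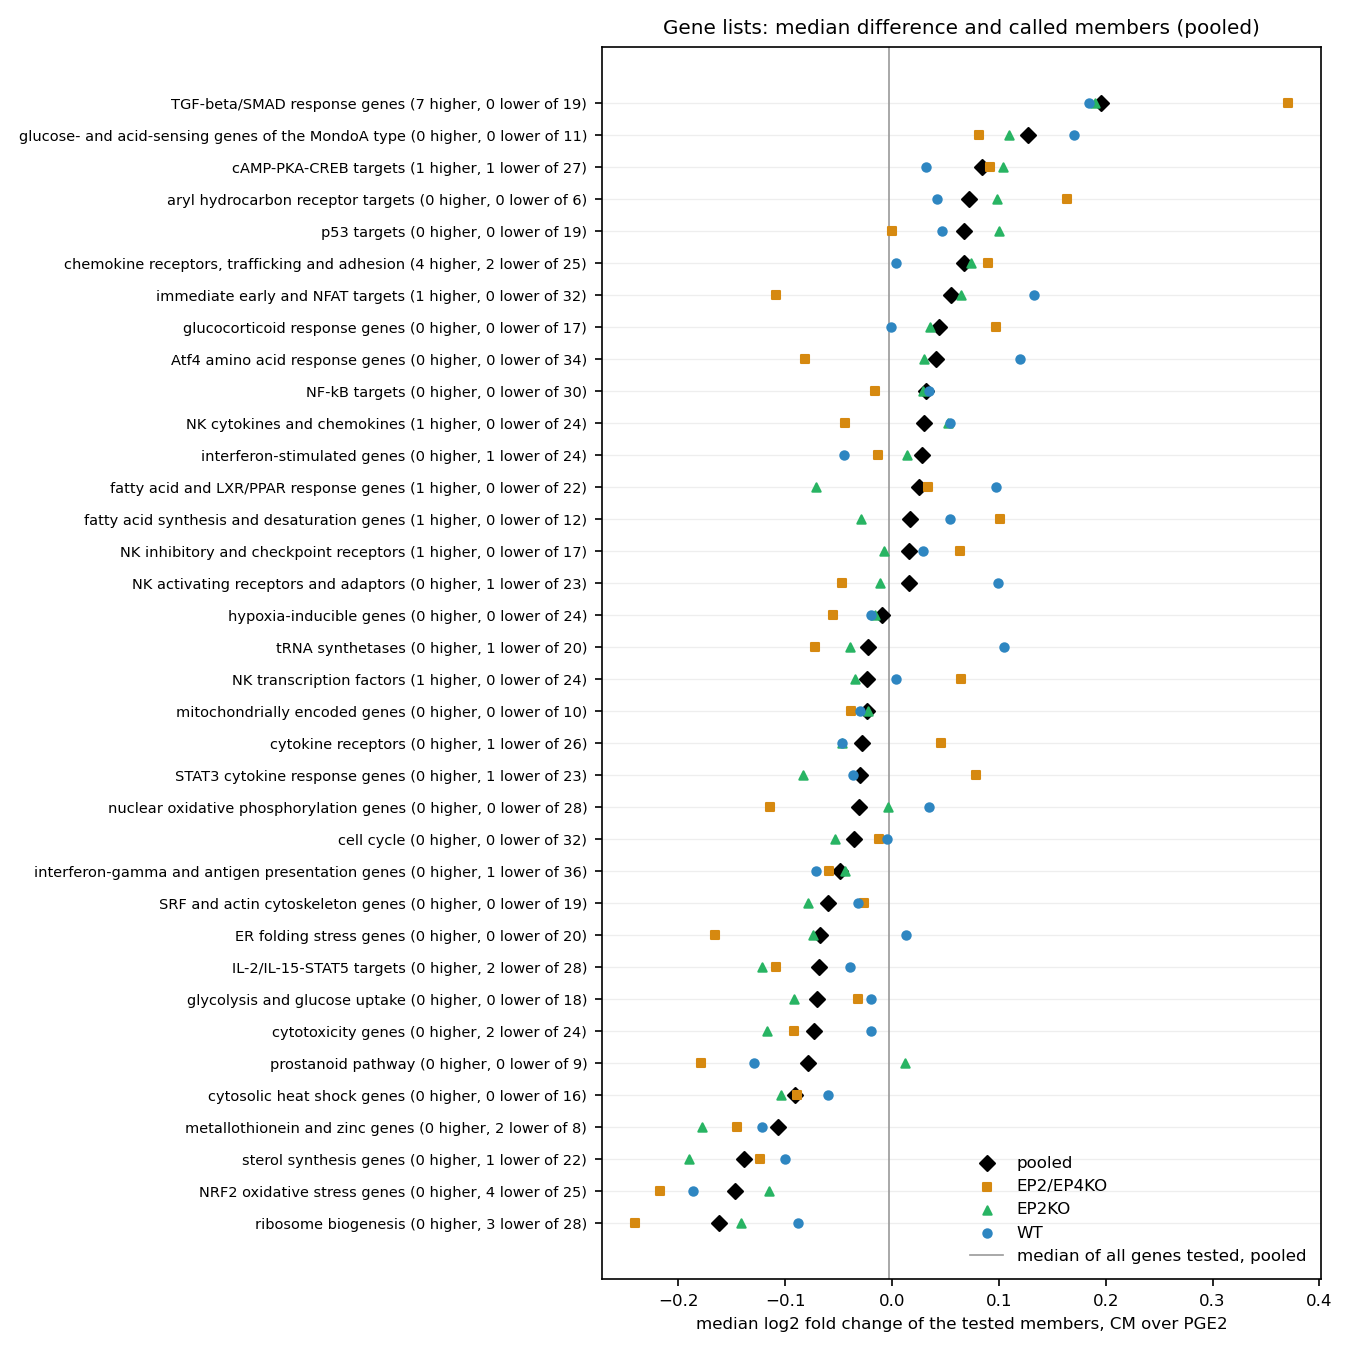
Median log2 fold change of CM over PGE2 over the tested members of 36 gene lists, ordered by the pooled median (black diamonds), with the medians in EP2/EP4KO (squares), EP2KO (triangles) and WT cells (circles); the counts beside each name are called members in the pooled comparison. TGF-beta/SMAD genes stand at the top with 0.20 and ribosome biogenesis at the bottom with -0.16, and the grey line is the median of all genes tested.

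No member was called in 15 of the 36 lists. They are the Atf4 amino acid response (34 tested), hypoxia-inducible genes (24), glycolysis (18), glucose- and acid-sensing MondoA targets (11), glucocorticoid response (17), aryl hydrocarbon receptor targets (6), NF-kB targets (30), the prostanoid pathway (9), cell cycle (32), cytosolic heat shock (16), folding stress of the endoplasmic reticulum (20), p53 targets (19), SRF and actin genes (19), mitochondrially encoded genes (10) and nuclear oxidative phosphorylation (28). Their medians lay between -0.09 for heat shock and 0.13 for MondoA targets. With 1.03% and 0.636% of all genes called, a list of about 20 genes without a call is near the background.

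In the fit without a replicate block, the genes called within single genotypes were 5 in EP2/EP4KO (0.0482% of genes tested), 4 in EP2KO (0.0385%) and 1 in WT cells (0.00964%), with 928, 529 and 428 at an unadjusted p under 0.05. In EP2/EP4KO cells Retreg1 (0.70 ± 0.14), Itga1 (0.78 ± 0.16), Timp2 (0.63 ± 0.12) and Pmepa1 (0.86 ± 0.15) were higher, as was Nrarp, a feedback inhibitor of Notch signalling (1.23 ± 0.25), which is named after its value was seen. In EP2KO cells Ldlrad4 (1.09 ± 0.18), Retreg1 (0.68 ± 0.12) and Epb41l2 (0.59 ± 0.12) were higher and mt-Tc was lower (-0.93 ± 0.14). In WT cells mt-Tc was lower (-0.82 ± 0.16). In that fit the CM against PGE2 difference was called different between genotypes for 0 genes (0%) by edgeR, for EP2KO minus WT, EP2/EP4KO minus EP2KO and EP2/EP4KO minus WT, with 195, 283 and 409 at an unadjusted p under 0.05, and 0 by DESeq2. Missing the threshold does not show that the genotypes respond alike. The small counts turned on single libraries: the EP2/EP4KO count was 0 without EP2/EP4KO PGE2 unstimulated replicate 1 and 24 without EP2/EP4KO CM stimulated replicate 1, and the WT count ranged over 0 to 3. 

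By state, 46 genes were called in stimulated (0.443%) and 7 in unstimulated cells (0.0675%), while the difference between the states called 0 (0%) by edgeR in the same fit, with 503 at an unadjusted p under 0.05, and 0 by DESeq2. Ldlrad4, Retreg1, Timp2, Gas7 and mt-Tc were called in both states. Ldlrad4 differed by 0.90 ± 0.17 in stimulated and 0.77 ± 0.16 in unstimulated cells, and mt-Tc by -0.95 ± 0.12 and -0.67 ± 0.13. Pmepa1 (0.70 ± 0.11 and 0.36 ± 0.12), Bcl9l (0.95 ± 0.16 and 0.65 ± 0.16), Smad7 (0.54 ± 0.10 and 0.32 ± 0.11), Tgfb1 (0.49 ± 0.10 and 0.41 ± 0.10) and Adam8 (-0.64 ± 0.10 and -0.23 ± 0.11) were called in stimulated cells and not in unstimulated ones. Itga1 (0.45 ± 0.12 and 0.71 ± 0.12) was called in unstimulated cells and not in stimulated ones. None of these differences between the states passed the test. The stimulated count was 18 without EP2/EP4KO PGE2 stimulated replicate 2, and the unstimulated count was 0 without WT PGE2 unstimulated replicate 4 and 2 without the whole unstimulated WT block.

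Genes called with one genotype left out were read in that genotype. Of 44 genes that were higher with CM in the EP2KO and WT libraries alone, 43 were also higher in EP2/EP4KO, with a median of 0.39 against 0.42 in the genotypes that called them, and 15 of 15 that were lower were lower there. Genes called without EP2KO were of the same sign in EP2KO for 13 of 13 higher and 3 of 3 lower. Genes called without WT were of the same sign in WT for 36 of 38 higher (median 0.37 against 0.50) and 16 of 18 lower (median -0.21 against -0.50). Medians in the calling genotypes come from the libraries that chose the genes, which favours large values. A smaller median in the genotype left out therefore does not show a weaker response there. Of all genes tested, 48.9% to 51.1% have either sign in the genotype left out. The exceptions were Arhgap39, Dzank1, Rcn1 and Tnfrsf11b in WT and Vasp in EP2/EP4KO. Some genes that kept their sign were far within 1 SE of no change, such as Pwp1 in WT (-0.0003 ± 0.127) and Scd2 in EP2KO (0.013 ± 0.175). Over the 107 pooled rises the median was 0.40 in EP2/EP4KO cells, in which both PGE2 receptors are targeted, 0.33 in EP2KO and 0.31 in WT, and over the 66 falls it was -0.39, -0.37 and -0.33. Those medians include the libraries that made the calls.

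**Figure D5:**
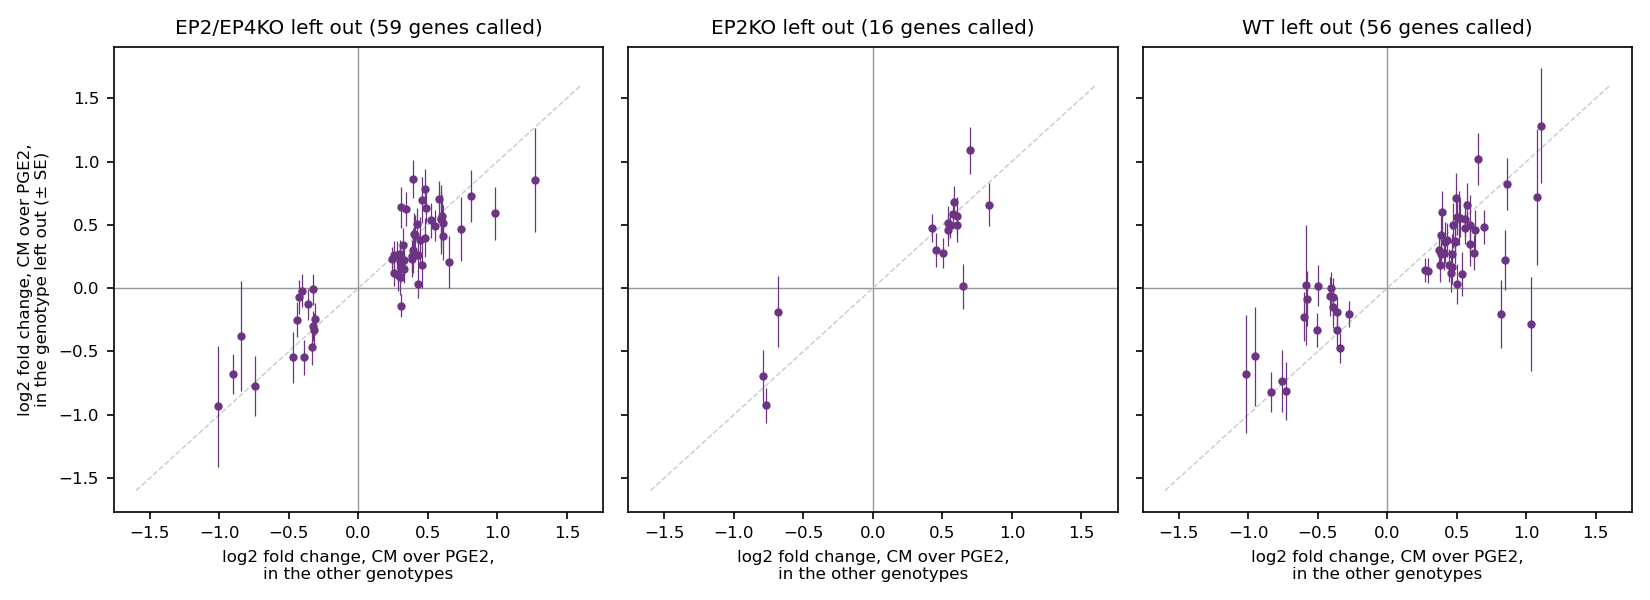
Each panel leaves out one genotype: genes called between CM and PGE2 in the other genotypes are plotted by their log2 fold change there (horizontal) and in the genotype left out (vertical, ± SE). With EP2/EP4KO, EP2KO and WT left out, all but 1 of 59, all 16 and all but 4 of 56 genes keep their sign, and many with WT left out lie nearer to 0 than the dashed line of equal change. The horizontal values also chose the genes, which favours large ones, so this position does not show a weaker response in WT.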

How the data were processed

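The authors deposited 1 table of raw gene counts from 3' end messenger RNA sequencing, for 64 libraries and 36273 gene symbols. Per the submitters' processing notes, GRCm38, mm10 and DESeq2 were used. The aligner, the use of molecular identifiers and of strand, and the region deleted in each mutant are unstated in the sources used here. Genes were filtered with edgeR's filterByExpr (minimum count 10) over the 42 CM and PGE2 libraries, which left 10377 genes with 99.08% of the counts. Library sizes were scaled by TMM, and robust quasi-likelihood tests were run in edgeR 4.0.16 (R 4.3.3, limma 3.58.1), with 1 CM term beside 6 block terms for the pooled comparison and 12 group means for genotypes, states and their differences. A gene is called at a Benjamini-Hochberg adjusted p under 0.05 over all genes tested. An adjusted p with no other name is from this test, ± is the SE of a log2 difference or the SD of a mean, and CPM are scaled by the TMM factors of all 64 libraries. Differences from untreated cells come from a fit of all 64 libraries, were added after seeing the data and carry no test. Totals of 753973 to 1461464 counts leave genes near 1 CPM to about 1 count.

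The text names the 15 largest rises and 15 largest falls among those called, given a mean log2 CPM of 4 or more and 1 sign in all 6 blocks, the largest 5 each way per genotype, up to 4 called members of each gene list, and 12 genes fixed by name. Predicted genes and sex-linked genes were passed over. Other list members are given for context, and a few genes that the rule names are not reported here. The members and lists were chosen with earlier results of these data known. The 36 gene lists and 7 marker lists are described by counts and medians, with no test of a list. Promoters were taken from RefSeq (GRCm38.p6), with Python 3.11.15. Alternatives were DESeq2 size factors, the DESeq2 1.42.0 test, no filter, all 64 libraries, equal weight of blocks, a replicate block, leaving out the unstimulated WT block, one genotype or one library. Simulated counts were used to test the scripts.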

Additional observations from a re-analysis of the deposited data

Results flagged for a closer look

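In groups of 4 libraries, the highest or lowest library was checked for its gap to the next one in 8 quantities: CPM of Timp2, Pmepa1, Tgfb1, Mt2, mt-Tc and Gzmb, the total counts and the mitochondrial share. Chance marks about 1 in 20 groups, and 4 of 56 stood out. Timp2 was at 63.4 CPM in WT CM unstimulated replicate 4, against 55.7 to 57 CPM in the other 3 of its group. Timp2 was at 62.4 CPM in WT CM stimulated replicate 2, against 42 to 44.1 CPM in the other 3, and the lower 3 stood just above the highest PGE2 library of that block, at 40.5 CPM. Mitochondrially encoded genes took 7.49% of the counts in WT CM stimulated replicate 1, against 9.36% to 9.44% in the other 3. Pmepa1 was at 136 CPM in EP2KO PGE2 unstimulated replicate 4, against 155 to 158 CPM in the other 3. Both genes stayed called in all 42 fits that each left out 1 library.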

How the results depend on the processing

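The pooled count of 173 came to 169 with DESeq2 size factors, 201 with the DESeq2 test, 149 with no filter and 127 both with all 64 libraries and with equal weight of blocks. It was 110 without the unstimulated WT block, 59 without the EP2/EP4KO libraries, 56 without the WT libraries and 16 without the EP2KO libraries, the last pair chosen after seeing the data. Fewer libraries enter these last fits. In the fits that each left out 1 library, counts ranged over 126 to 196 pooled, 0 to 24 in EP2/EP4KO, 3 to 7 in EP2KO, 0 to 3 in WT, 18 to 52 in stimulated and 0 to 18 in unstimulated cells, and stayed at 0 for the differences between genotypes and between states. The DESeq2 test called 15 in EP2/EP4KO, 3 in WT and 29 in unstimulated cells. With no filter the counts were 13 in EP2/EP4KO, 8 in EP2KO, 5 in WT and 20 in unstimulated cells. With all 64 libraries they were 3, 8 and 0 in EP2/EP4KO, EP2KO and WT. Without the unstimulated WT block they were 3 in EP2/EP4KO, 0 in WT and 2 in unstimulated cells. The cause of these shifts was not tested. Without the WT libraries the log2 difference changed sign for 4 genes that were not called: Ptger2 at -0.17, Ifng at -0.0086, Xcl1 at -0.0033 and Stat3 at 0.060. Of 55 called named genes, 40 stayed called in all 42 fits without 1 library, and 13 under all 10 other alternatives.

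No label says that a replicate number pairs libraries. Deviations of same-numbered CM and PGE2 libraries from their group means correlated with r of -0.0458 to 0.738 (median 0.342, over 0.1 in 18 of 20 pairs), and 17 of 20 CM libraries correlated best with their own number, a hint from the data and not from the design. With a replicate block (number within genotype) the calls were 515 pooled (283 higher, 232 lower, all 173 among them), 284 in EP2/EP4KO, 67 in EP2KO, 51 in WT, 262 in stimulated and 219 in unstimulated cells, with 1 for EP2/EP4KO minus WT and 9 for the difference between states.

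About 1 count per CPM limits low genes such as Hmox1, Epcam and Ramp3. A failed test, here with 2 to 4 libraries a group, does not show equal levels. CM and PGE2 were not matched for PGE2 dose, and EP2/EP4KO differs from EP2KO and WT also in sex.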

Other observations

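The genes in this section were called in the pooled comparison but lie outside the rule for named genes, and were chosen after their values were seen. Nrarp, a target and feedback inhibitor of Notch, differed by 0.63 ± 0.15 (adjusted p = 0.0105), Rbpj, the DNA-binding partner of the Notch intracellular domain, by 0.28 ± 0.07 (adjusted p = 0.0128), and Mib2, a ubiquitin ligase for Notch ligands, by 0.48 ± 0.13 (adjusted p = 0.0428). The log2 difference of Nrarp was 1.23 in EP2/EP4KO, 0.63 in EP2KO and 0.22 in WT cells. The cyclin gene Ccnd1 had the largest rise of the comparison (1.17 ± 0.21 (adjusted p = 0.000503)), at an average log2 CPM of 2.68. Ptpn6, the phosphatase SHP-1 (0.30 ± 0.07 (adjusted p = 0.00858)), Inpp5d, the lipid phosphatase SHIP1 (0.25 ± 0.06 (adjusted p = 0.0105)), and Rgs10, a brake on G protein signalling (0.45 ± 0.08 (adjusted p = 0.00107)), were higher. Ptpn6 differed by 0.03 in EP2/EP4KO, 0.36 in EP2KO and 0.43 in WT cells. The growth factor gene Pdgfb rose by 0.49 ± 0.12 (adjusted p = 0.0178).

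Among falls outside the rule, C5ar1, the receptor for complement C5a, differed by -0.79 ± 0.17 (adjusted p = 0.00697), the membrane protein Perp by -0.72 ± 0.18 (adjusted p = 0.0243), the growth factor Hbegf by -0.49 ± 0.14 (adjusted p = 0.0458), the adhesion molecule Alcam by -0.30 ± 0.07 (adjusted p = 0.00772) and the kinase gene Prkca by -0.34 ± 0.08 (adjusted p = 0.0178). Tnfrsf11b, which encodes the decoy receptor osteoprotegerin, differed by -0.52 ± 0.14 (adjusted p = 0.032) and was at -0.37 in EP2/EP4KO, -0.75 in EP2KO and 0.02 in WT cells. Nol12, of RNA processing (-0.27 ± 0.07 (adjusted p = 0.0367)), Exosc10, of the RNA exosome (-0.30 ± 0.08 (adjusted p = 0.0481)) and Polr3d, of RNA polymerase III (-0.30 ± 0.08 (adjusted p = 0.0393)), were lower.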
